A study of Homo sapiens with 6 samples.

Results

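Axon guidance ligands and receptors were followed in LX-2 cells, an established human line derived from hepatic stellate cells, which turn into matrix-producing myofibroblasts when the liver is injured. The members are the semaphorins, plexins, neuropilins, Slits, Robos, ephrins, Eph receptors, netrins and netrin receptors, taken by gene symbol: 64 of the 16569 genes in the deposited table. All cells were wild-type LX-2 that had grown in medium with 2% fetal bovine serum and then spent 18 h without serum. One group (n = 3 libraries) then received phosphate-buffered saline (PBS) and the other (n = 3 libraries) 100 ng/mL of IGFBP-7, a secreted insulin-like growth factor binding protein, each for 24 h. Poly(A) RNA was sequenced. LX-2 is a single cell line, and the labels do not tie the libraries of a group to separate cultures. The p-values therefore reflect library-to-library spread alone, and that spread may be technical.

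These families were first described as signals that steer growing axons, and they also position cells, vessels and matrix-producing cells outside the nervous system. Semaphorins bind plexins, and most secreted class 3 semaphorins need a neuropilin as co-receptor. Secreted Slits bind Robo receptors. Ephrins are held on the cell surface, by a lipid anchor in the A class and by a membrane-spanning segment in the B class, and bind Eph receptor tyrosine kinases on neighbouring cells. Netrins are laminin-related secreted proteins read by DCC, neogenin and the UNC5 receptors.

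After IGFBP-7, some members rose and others fell, and 8 of the 12 families held members of both kinds. Called members moved only upward in the Robos and B-class ephrins, and only downward in the EphA receptors and netrins. SEMA7A rose 5.51-fold, NRP2 4.11-fold and UNC5B 12.5-fold, EPHB1, EPHB2 and EPHB3 rose, and SLIT2, SEMA3A, SEMA3B, SEMA3D, SEMA3E and NTN4 each fell by at least 1 on the log2 scale. Levels are the authors' normalized counts. A log2 change is the difference of log2(normalized count + 1), IGFBP-7 minus PBS, with its standard error (SE), and the added 1 makes it too small for genes near the bottom of the table. Of the 64 members, 54 averaged 10 or more normalized counts across the 6 libraries and were tested with limma over all 11872 genes that passed this filter. At an adjusted p under 0.05, 19 members rose, 24 fell and 11 did not pass. The 43 changed members are 79.6% of those tested, and 60.6% of all tested genes changed. The rises were 19 of 54, beside 31.3% of all tested genes, and the falls 24 of 54, beside 29.2%. The median log2 change was -0.016 over the tested members and 0.024 over all tested genes. The 3 libraries of one group all lay above the 3 of the other in 43 members (63.5% of all tested genes), a set in which ROBO3 takes the place of EPHB6 among the changed members. A change of at least 1 on the log2 scale, together with an adjusted p under 0.05 and no overlap, was found in 18 members, 8 higher and 10 lower. The same criteria were met by 11% of all tested genes, 4.89% higher and 6.11% lower.

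**Figure D1:**
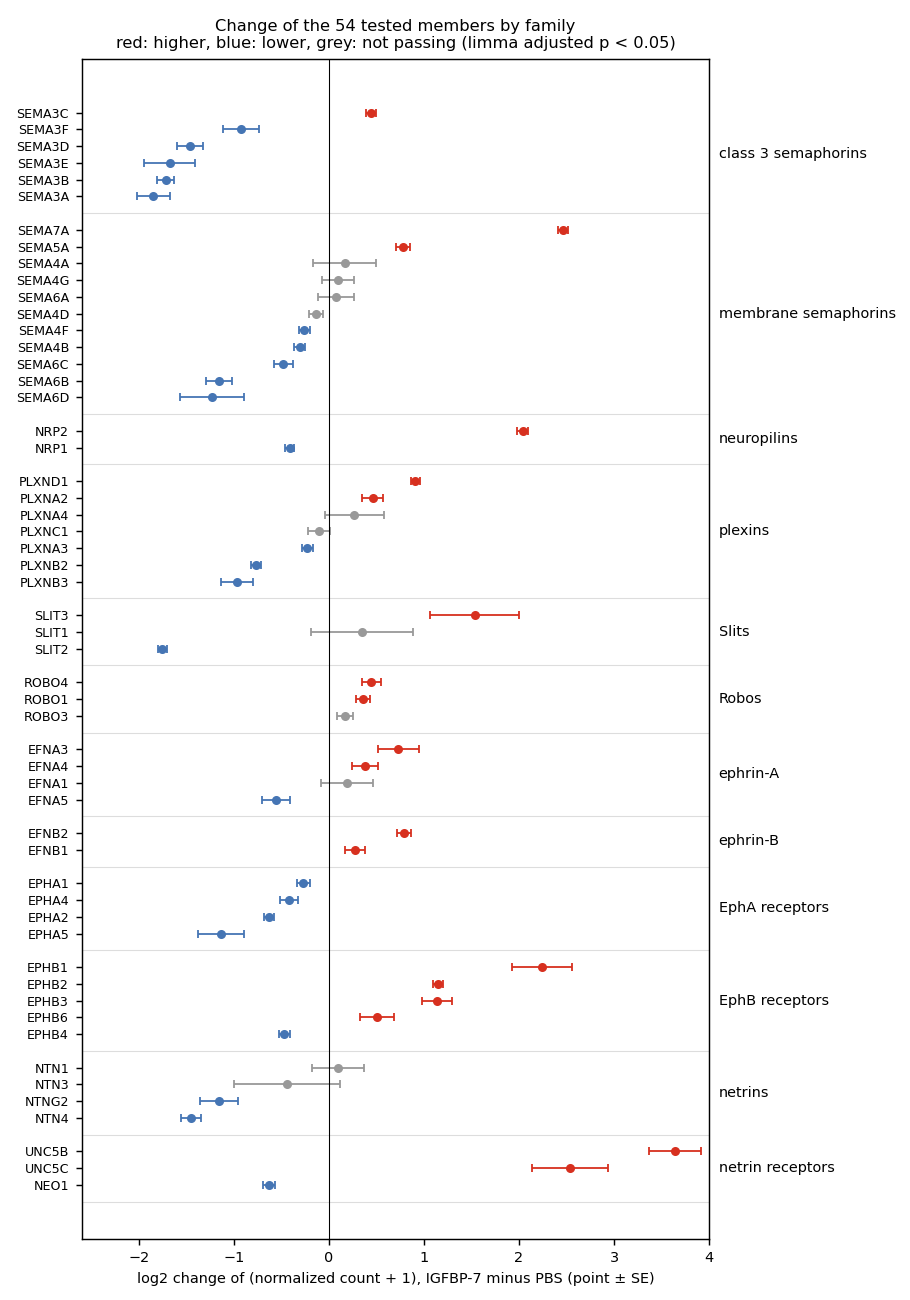
Log2 change of (normalized count + 1), IGFBP-7 minus PBS, on the x axis for each of the 54 tested members, grouped by family on the y axis, with points at the estimate and bars of 1 SE (limma, 3 libraries per group). The 4 tested EphA receptors lie left of 0, 4 of the 5 EphB receptors lie right of it, and 5 of the 6 tested class 3 semaphorins lie left of it.

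Normalized counts summed over genes to 21287527 to 21682060 in the PBS libraries and 23373767 to 24123228 with IGFBP-7. A counting unit is 2 of the smallest steps in a library's values, or 0.847 to 1.068 normalized counts. Whether it is a sequenced fragment or a single read was not settled. A level of 3 units corresponds to 2.54 to 3.20 normalized counts. Of 7 tested stellate and mesenchymal markers, 6 rose and 1 (THY1) fell, beside 31.3% of all tested genes higher and 29.2% lower. Their summed level was 93752 to 96561 in PBS and 259250 to 285831 with IGFBP-7. Most of it was COL1A1, at 47543 to 50703 in PBS and 189675 to 207294 with IGFBP-7. The marker DES was at 0 in the PBS libraries and at most 4.09 with IGFBP-7. Of 7 endothelial markers, 4 were tested, 2 rose and 1 fell. Their summed level was 2476 to 2744 in PBS and 2225 to 2321 with IGFBP-7, most of it TIE1, which fell (log2 change -0.29), while PECAM1 (0.87) and TEK (0.71) rose and CDH5 and EMCN were at 0 with IGFBP-7. Of 6 neuron markers in the table, 4 were tested, 1 rose and 2 fell. SYT1 rose (log2 change 0.35), SNAP25 (-1.61) and NEFL (-2.13) fell, and SYP did not pass. The summed level of the neuron markers was 1019 to 1208 in PBS and 940 to 1169 with IGFBP-7, most of it SYT1 and SNAP25. RBFOX3 and ELAVL3 were never above 5.89. Of 4 glia markers, 3 were tested, 1 rose and 2 fell, among them MBP (log2 change -2.12), and the sum went from 1254 to 1346 in PBS to 387 to 449 with IGFBP-7. Sums of hepatocyte markers were 228 to 281 in PBS and 213 to 255 with IGFBP-7, of leukocyte markers 457 to 483 and 333 to 456, and of epithelial markers 1210 to 1341 and 1634 to 1736. ALB, PTPRC and EPCAM did not exceed 10.7 in any library. Other genes of these lists were well above that: CSF1R rose (log2 change 2.35) and CD14 fell (-2.22), SOX9 rose (0.49), and SERPINA1 and KRT7 did not pass (-0.15 and 0.25). The part of these genes in the results was not tested. In bulk RNA, fewer cells with a transcript and less of it per cell cannot be told apart.

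Sequence just upstream of the start of 4 members whose values carry the results is printed here, a pair that rose (SEMA7A, NRP2) and a pair that fell (SLIT2, SEMA3D). Each is the 240 bases that open the RefSeq promoter window (build GRCh38.p14), read 5′ to 3′ on the gene's strand and ending short of the annotated start. None overlaps an exon of its own gene in GENCODE release 29. Capitals mark 3 motifs searched on both strands: CAGAC, a core of SMAD-binding sequence, TGANTCA, the AP-1 site, and GGGCGG, the GC box.
SEMA7A: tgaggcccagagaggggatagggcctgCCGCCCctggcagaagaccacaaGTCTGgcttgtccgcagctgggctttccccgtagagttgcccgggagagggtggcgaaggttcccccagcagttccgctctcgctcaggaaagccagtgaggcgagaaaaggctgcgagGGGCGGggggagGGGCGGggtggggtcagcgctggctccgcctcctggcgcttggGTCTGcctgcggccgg
NRP2: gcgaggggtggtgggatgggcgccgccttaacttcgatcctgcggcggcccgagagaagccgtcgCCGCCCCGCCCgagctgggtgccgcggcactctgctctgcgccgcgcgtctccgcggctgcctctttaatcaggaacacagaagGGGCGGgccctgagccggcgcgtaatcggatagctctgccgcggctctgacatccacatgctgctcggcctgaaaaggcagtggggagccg
SLIT2: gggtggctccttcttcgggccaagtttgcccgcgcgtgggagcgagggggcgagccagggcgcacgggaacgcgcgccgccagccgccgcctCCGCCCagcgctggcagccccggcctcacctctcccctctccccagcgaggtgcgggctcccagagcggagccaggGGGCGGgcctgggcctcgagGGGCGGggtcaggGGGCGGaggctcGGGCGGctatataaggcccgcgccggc
SEMA3D: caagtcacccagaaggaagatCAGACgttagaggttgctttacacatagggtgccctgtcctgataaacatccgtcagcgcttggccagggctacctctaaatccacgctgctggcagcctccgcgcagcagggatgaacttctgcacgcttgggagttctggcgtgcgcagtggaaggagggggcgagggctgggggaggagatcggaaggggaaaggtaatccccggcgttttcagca

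The windows lie at chr15:74433969-74434208 on the minus strand (SEMA7A, the first of 2 starts listed), chr2:205682251-205682490 on the plus strand (NRP2), chr4:20251655-20251894 on the plus strand (SLIT2) and chr7:85187067-85187306 on the minus strand (SEMA3D). The SEMA7A window holds 2 matches to CAGAC and 3 to GGGCGG. NRP2 holds 3 matches to GGGCGG, 2 of them overlapping, SLIT2 holds 5, and SEMA3D holds 1 match to CAGAC and none to GGGCGG. No window of the 4 holds TGANTCA. A window was found for 55 members and none for NRP1, NTN1, NTN3, NTNG2, SEMA3A, SEMA6A, SEMA6B, UNC5B and UNC5D. With 1 window per gene, GGGCGG was present in 40 of the 55 members (72.7%) and in 41% of 27305 genes, CAGAC in 15 (27.3%) and in 36.7%, and TGANTCA in 1 (1.82%) and in 6.47%. The 27305 are all genes with a window and are not limited to the 16569 of the deposited table. Members and background were thus not matched for gene type or expression. A match is a run of letters and not a measured binding site. In the printed windows CAGAC stood in a member that rose (SEMA7A) and in one that fell (SEMA3D), and GGGCGG likewise (SEMA7A and NRP2, SLIT2).

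Among the secreted class 3 semaphorins, 5 of 6 tested members fell and 1 rose, with a median log2 change of -1.57. SEMA3A, the collapsing factor of growth cones that signals through NRP1, was at 297, 300 and 258 normalized counts in the PBS libraries and at 75.6, 82.1 and 77.5 with IGFBP-7. The groups stood far apart, with a fall by 1.85 ± 0.17 (SE) on the log2 scale (limma adjusted p = 2.85e-13). SEMA3B, a semaphorin studied as a growth suppressor, was at 1436, 1521 and 1446 against 395, 446 and 502. It fell by 1.72 ± 0.09 (adjusted p = 1.50e-22). SEMA3D was at 410, 426 and 471 against 171, 159 and 143, a fall by 1.46 ± 0.14. SEMA3E, which can bind PLXND1 without a neuropilin, was lower and more variable, at 88.6, 134 and 113 against 26.6, 37.3 and 39.3, and its groups were still separate. It fell by 1.67 ± 0.27. SEMA3F, a ligand of NRP2, fell by 0.92 ± 0.19, from 206 ± 12.7 to 111 ± 33.9 (SD, n = 3). SEMA3C moved the other way. This ligand of both neuropilins and of PLXND1 was at 5299, 5320 and 5521 in PBS and at 7403, 7680 and 6887 with IGFBP-7, a rise of 0.44 ± 0.05 (adjusted p = 1.51e-10). SEMA3G stayed at or below 6.20 normalized counts in every library and was not tested.

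Levels of different genes are compared per kilobase of exon in GENCODE release 29, which may not be the annotation the authors used. On this scale SEMA3C was the highest class 3 semaphorin in both groups, at 858 ± 19.6 normalized counts per kb in PBS and 1168 ± 64.3 with IGFBP-7, and SEMA3B came second at 254 ± 8.03 and 77.6 ± 9.33. The ratio of SEMA3C to SEMA3B per kb was 3.39, 3.22 and 3.51 in the PBS libraries and 17.3, 15.8 and 12.6 in the IGFBP-7 libraries. The per-kb sum over the 7 class 3 genes was 1253 ± 24.7 in PBS and 1302 ± 61.9 with IGFBP-7, values that overlapped between groups. The groups were thus not separated by the class 3 total, while SEMA3C made up more of it with IGFBP-7.

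**Figure D2:**
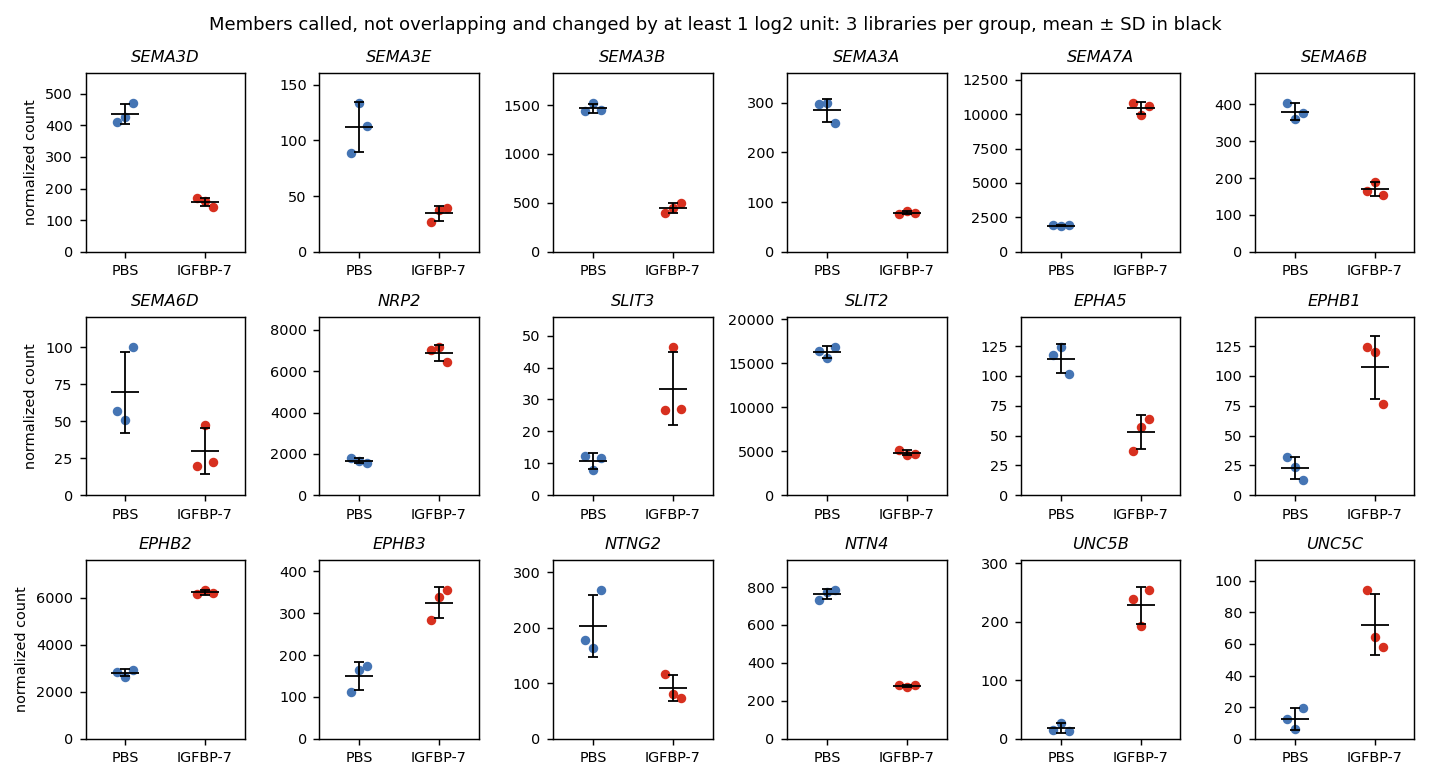
Normalized counts (y axis, from 0) in each of the 3 PBS libraries (blue) and 3 IGFBP-7 libraries (red) for the 18 members that passed the test, did not overlap between groups and changed by at least 1 on the log2 scale, with mean ± SD in black. SEMA7A sits at 1858 to 1917 in PBS and 9918 to 10811 with IGFBP-7, and SLIT2 at 15596 to 16909 and 4626 to 5193.

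Of the 11 tested semaphorins of classes 4 to 7, which are held at the membrane, 2 rose, 5 fell and 4 did not pass. SEMA7A, the lipid-anchored semaphorin that binds PLXNC1 and beta1 integrins, was at 1906, 1858 and 1917 in PBS and at 10811, 9918 and 10617 with IGFBP-7. Its rise of 2.46 ± 0.05 (limma adjusted p = 5.72e-39) was the largest among the semaphorins, and its promoter window is printed above. Per kb, SEMA7A went from 498 ± 8.28 to 2750 ± 124, and the sum over the 12 membrane semaphorins from 1861 ± 33.9 to 3936 ± 108. SEMA5A, a thrombospondin-repeat semaphorin, rose by 0.78 ± 0.07, from 1181 ± 67.4 to 2036 ± 204. SEMA6B, a transmembrane ligand of class A plexins, was at 404, 359 and 377 against 166, 190 and 155, a fall by 1.16 ± 0.14. SEMA6D, of the same class, was at 56.6, 51.1 and 100 against 19.4, 47.4 and 22.7. Its groups were separate by a narrow margin, with a fall by 1.23 ± 0.34 (adjusted p = 0.00151). Smaller falls were found in SEMA6C (0.48 ± 0.10), SEMA4B and SEMA4F, with log2 changes of -0.31 ± 0.06 and -0.26 ± 0.06 for the last pair. SEMA4A, SEMA4D, SEMA4G and SEMA6A did not pass. SEMA6A-AS1, which overlaps 2.45% of the SEMA6A exon bases on the other strand, rose (log2 change 0.53), and its part in the SEMA6A value was not tested. SEMA4D, a ligand of class B plexins, had a log2 change of -0.14 (95% interval -0.28 to 0.01, adjusted p = 0.105). It passed as lower with scaling to the library total (adjusted p = 0.00123), with quantile normalization (0.0451) and without IGFBP-7 replicate 2 (0.0335). SEMA5B was at most 4.13 in any library and was not tested, and SEMA4C was not analysed here.

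The neuropilins, co-receptors shared by semaphorins and vascular endothelial growth factor, moved in opposite directions. NRP2 was at 1795, 1655 and 1572 in PBS and at 7006, 7195 and 6427 with IGFBP-7, a rise of 2.04 ± 0.06 (limma adjusted p = 1.97e-33). NRP1 fell by 0.41 ± 0.05, from 10128 ± 369 to 7614 ± 159 (adjusted p = 1.36e-10). Within a library the ratio of the pair does not depend on the scaling between libraries: NRP2 per kb was 0.146, 0.141 and 0.125 of NRP1 in the PBS libraries and 0.757, 0.772 and 0.717 in the IGFBP-7 libraries. NRP1 thus remained the higher of the pair per kb in each library, by a much smaller margin with IGFBP-7. KDR, the main receptor for which neuropilins act as partners in endothelium, did not pass, at 83.1 ± 23.5 and 86.6 ± 19.0.

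Of the 7 plexins in the table, 2 rose, 3 fell and 2 did not pass. PLXND1, the receptor of SEMA3E and a receptor of SEMA3C, was at 5668, 5555 and 5864 in PBS and at 11154, 10546 and 10382 with IGFBP-7. It rose by 0.91 ± 0.05 (limma adjusted p = 2.17e-22). PLXNB2, a class B plexin bound by class 4 semaphorins, went the other way from 12020 ± 725 to 7066 ± 417, a fall by 0.77 ± 0.05. PLXND1 per kb was 0.339, 0.370 and 0.351 of PLXNB2 in PBS and 1.13, 1.09 and 1.17 with IGFBP-7. It was thus below PLXNB2 in each PBS library and above it in each IGFBP-7 library. PLXNA2 rose by 0.46 ± 0.11. PLXNA3 fell by 0.23 ± 0.06 and PLXNB3 by 0.97 ± 0.17. PLXNB3 shares 20.4% of its exon bases with SRPK3 on the same strand, which makes its count uncertain, although SRPK3 itself did not pass (log2 change -0.05). PLXNC1, the receptor of SEMA7A, was at 459 ± 55.8 and 425 ± 38.9 and did not pass (log2 change -0.11, 95% interval -0.34 to 0.12), and neither did PLXNA4. CEP83, which overlaps 1.79% of the PLXNC1 exon bases on the other strand, rose (log2 change 0.32), and its part in the PLXNC1 value was not tested. SEMA7A stood at 10.9 ± 1.38 times PLXNC1 per kb in PBS and at 64.5 ± 7.82 times with IGFBP-7. PLXNA1 and PLXNB1 were not analysed here.

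**Figure D3:**
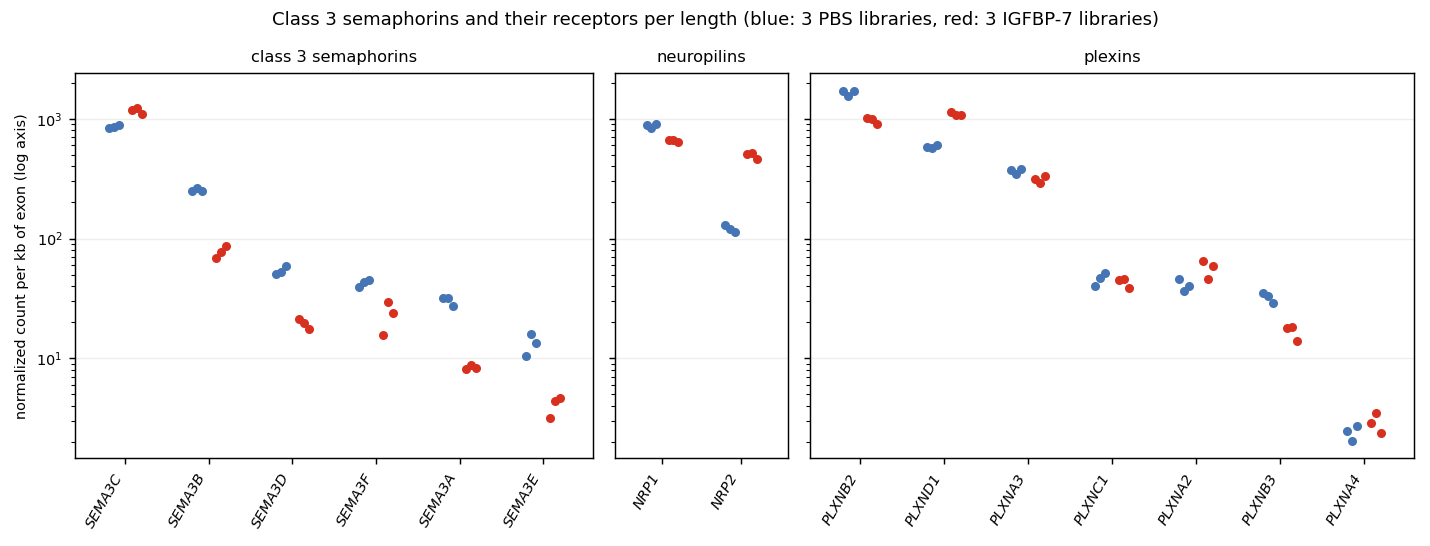
Normalized counts per kilobase of exon (log y axis) for the tested class 3 semaphorins, neuropilins and plexins, with 3 PBS libraries in blue and 3 IGFBP-7 libraries in red. NRP2 approaches NRP1 with IGFBP-7 (ratio 0.717 to 0.772), and PLXND1 lies above PLXNB2 in the 3 IGFBP-7 libraries and below it in the 3 PBS libraries.

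SLIT2, the main Slit of these cells, fell. It was at 16412, 15596 and 16909 normalized counts in PBS and at 5193, 4626 and 4727 with IGFBP-7, a 3.36-fold lower level and a fall by 1.75 ± 0.05 on the log2 scale (limma adjusted p = 2.92e-34). SLIT3 was near the lower end of the table, at 12.4, 7.86 and 11.7 against 26.6, 46.6 and 26.9. These came from 31 counting units in the PBS libraries together and 107 in the IGFBP-7 libraries. SLIT3 rose by 1.53 ± 0.47 (adjusted p = 0.00434), a call that was lost without IGFBP-7 replicate 2 (log2 change 1.27, adjusted p = 0.0581). SLIT1 did not pass, at 14.5 ± 9.61 and 16.9 ± 4.28. It shares 2.37% of its exon bases on the same strand with the readthrough gene ARHGAP19-SLIT1, so its count is uncertain. ARHGAP19-SLIT1 was far higher, at 474 ± 7.44 and 472 ± 64.8, and did not pass. SLIT2 thus made up nearly all Slit transcript on the per-kb scale in both groups, at 1679 ± 68.3 of a sum of 1681 ± 67.5 in PBS and 499 ± 31.2 of 503 ± 30.6 with IGFBP-7.

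Of the 3 tested Robo receptors, 2 rose, each by under 1 on the log2 scale, and 1 did not pass. ROBO1, the widely expressed Slit receptor, rose by 0.36 ± 0.07, from 1467 ± 76.8 to 1880 ± 60.5, and ROBO4, a member best known from endothelium, by 0.45 ± 0.10, from 458 ± 48.4 to 624 ± 21.4. ROBO3, which controls midline crossing of axons, did not pass. It was at 1067, 1042 and 1009 in PBS and at 1111, 1093 and 1315 with IGFBP-7, so the groups did not overlap but lay close (log2 change 0.17, adjusted p = 0.0668). Without IGFBP-7 replicate 2 it passed as higher (log2 change 0.22, adjusted p = 0.0362). ROBO2 was not analysed here.

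Among the ephrins, 4 of 6 tested members rose, 1 fell and 1 did not pass, and none changed by 1 or more on the log2 scale. EFNB2, the ligand of EPHB4 in artery and vein formation, was at 810, 888 and 829 in PBS and at 1472, 1485 and 1413 with IGFBP-7. It rose by 0.79 ± 0.08 (limma adjusted p = 1.48e-12). EFNB1 rose by 0.27 ± 0.10 (adjusted p = 0.0209), a call lost with scaling to the library total (0.286), without PBS replicate 2 (0.141) and without IGFBP-7 replicate 1 (0.0902). EFNA3 and EFNA4 rose by 0.73 ± 0.21 and 0.38 ± 0.13, while EFNA5 fell by 0.56 ± 0.14 and EFNA1 did not pass. EFNA3 shares 44.7% and EFNA4 15% of its exon bases with the readthrough gene EFNA4-EFNA3, so both counts are uncertain, and the EFNA4 call was lost with scaling to the library total (adjusted p = 0.127) and without PBS replicate 1 (0.0623). EFNA2 was at 0 in the 3 PBS libraries and at 8.18, 5.93 and 6.20 with IGFBP-7. Its 21 counting units against 0 give an at least 6.59-fold higher level if 3 units over the PBS group are the floor. That bound is lower if the reads of a fragment were counted as separate units. EFNA2 was not tested because its mean over 6 libraries was under 10. EFNB3 was not analysed here.

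The Eph receptors divided by class only in part. All 4 tested EphA receptors fell and 4 of 5 EphB receptors rose, while EPHB4, the highest EphB receptor per kb in PBS, fell. EPHA2, the EphA receptor with the highest level per kb here, fell by 0.63 ± 0.05 (limma adjusted p = 3.21e-15), from 7760 ± 223 to 5016 ± 309. EPHA5 was at 117, 125 and 101 in PBS and at 36.8, 57.6 and 64.1 with IGFBP-7. It fell by 1.13 ± 0.25, and its count is uncertain since 5.44% of its exon bases overlap EPHA5-AS1 and whether the counting used strand is not stated. EPHA4, which binds ephrins of both classes, fell by 0.42 ± 0.09 and EPHA1 by 0.27 ± 0.07. ZYX, which overlaps 1.73% of the EPHA1 exon bases on the other strand, also fell (log2 change -0.26), and its part in the EPHA1 value was not tested. The per-kb sum of the EphA receptors was 2428 ± 88.4 in PBS and 1659 ± 77.6 with IGFBP-7, without overlap between the groups. That of the EphB receptors was 871 ± 24.2 in PBS and 1044 ± 13.9 with IGFBP-7.

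EPHB2, a receptor of B-class ephrins, was at 2859, 2649 and 2936 in PBS and at 6154, 6336 and 6222 with IGFBP-7, a rise of 1.15 ± 0.06 (limma adjusted p = 2.73e-24). EPHB3 was at 111, 165 and 173 against 283, 338 and 355, a rise of 1.13 ± 0.16. EPHB1 started low, at 31.9, 23.6 and 12.8, and reached 125, 120 and 76.5, a rise of 2.24 ± 0.32 with no overlap between the groups. KY, a gene that shares 0.92% of the EPHB1 exon bases on the other strand, rose as well (log2 change 2.75), and its part in the EPHB1 value was not tested. EPHB6, which lacks kinase activity, rose by 0.51 ± 0.18 (adjusted p = 0.0132) with overlapping groups, a call lost with scaling to the library total (0.0858), without PBS replicate 3 (0.0998) and without IGFBP-7 replicate 1 (0.0787). EPHB4, the venous receptor of EFNB2, fell by 0.47 ± 0.06, from 3761 ± 122 to 2720 ± 97.1. SLC12A9, which overlaps 1.07% of its exon bases on the other strand, fell too (log2 change -0.47), and its part in the EPHB4 value was not tested. EPHB2 per kb was 0.377, 0.371 and 0.407 of EPHB4 in PBS and 1.13, 1.18 and 1.23 with IGFBP-7, so EPHB2 passed from below EPHB4 to above it. EPHA6 and EPHA8 were at most 4.13 in any library and were not tested, and EPHA3, EPHA7 and EPHA10 were not analysed here.

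**Figure D4:**
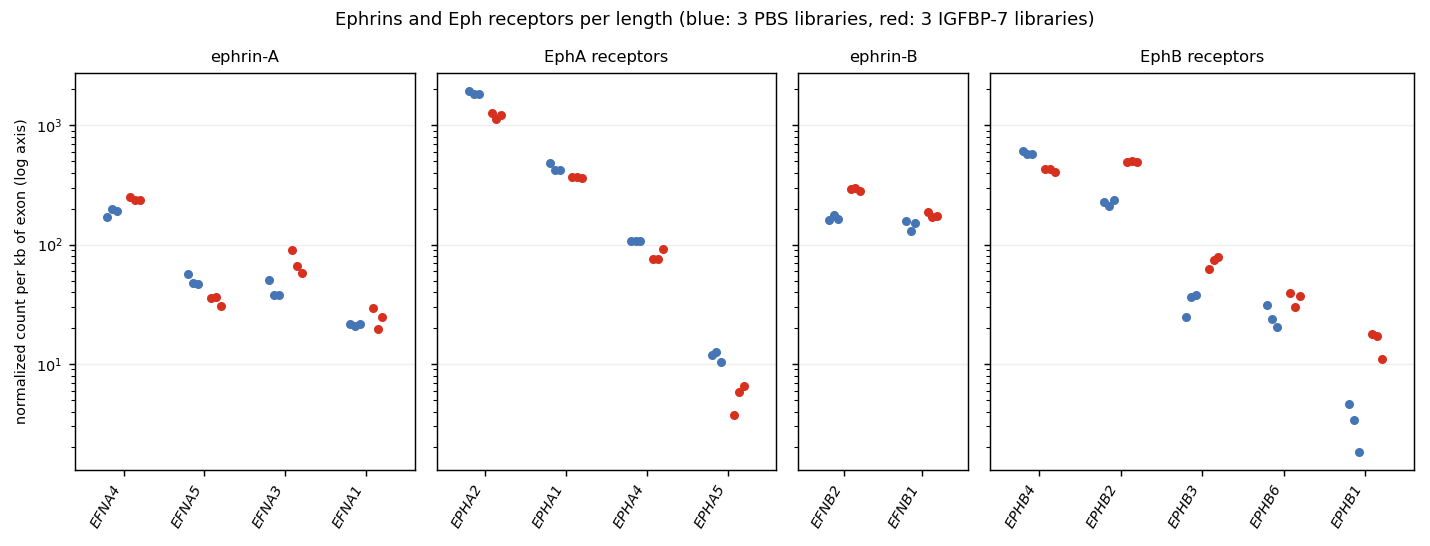
Normalized counts per kilobase of exon (log y axis) for the tested ephrins and Eph receptors, with 3 PBS libraries in blue and 3 IGFBP-7 libraries in red. The 4 EphA receptors are lower with IGFBP-7, while EPHB1, EPHB2 and EPHB3 are higher and EPHB2 moves from below EPHB4 to above it.

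Of the 4 tested netrins, 2 fell and 2 did not pass, and of the 3 tested netrin receptors, UNC5B and UNC5C rose and NEO1 fell. NTN4, a netrin of basement membranes that binds laminin, was at 731, 776 and 784 in PBS and at 283, 273 and 281 with IGFBP-7. It fell by 1.45 ± 0.11 (limma adjusted p = 5.95e-17). NTNG2, a lipid-anchored netrin that does not use DCC, was at 178, 164 and 268 against 118, 81.3 and 73.4, a fall by 1.15 ± 0.20. NTN1, the classical netrin, did not pass, at 62.1 ± 20.2 and 64.9 ± 12.5 (log2 change 0.10, 95% interval -0.45 to 0.65), and NTN3 did not pass at 17.3 ± 6.45 and 13.4 ± 8.94.

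UNC5B, the UNC5 receptor known from vessels and the member with the largest rise of all 54, was at 14.4, 27.5 and 12.8 in PBS and at 238, 193 and 254 with IGFBP-7. It rose by 3.64 ± 0.27 (limma adjusted p = 1.28e-16), from 54 to 707 counting units. UNC5C was at 12.4, 5.89 and 19.2 against 94.0, 64.4 and 57.9, a rise of 2.54 ± 0.40. Both have an antisense gene in the table, UNC5B-AS1 at 1.42 and 1.13 and UNC5C-AS1 at 2.09 and 1.69 normalized counts on average, which is far below the receptors with IGFBP-7. NEO1, the neogenin receptor of netrins and of repulsive guidance molecules, fell by 0.63 ± 0.06, from 3286 ± 19.0 to 2126 ± 161. UNC5B per kb was 0.00523, 0.00995 and 0.00460 of NEO1 in PBS and 0.122, 0.114 and 0.146 with IGFBP-7, so NEO1 was the highest netrin receptor per kb in each library. DCC, UNC5A, UNC5D, NTN5 and NTNG1 did not exceed 9.27 normalized counts in any library and were not tested.

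Genes that act with these receptors were taken from 4 lists drawn from textbook knowledge, and their counts stand beside 31.3% of all tested genes higher and 29.2% lower. Of 19 tested semaphorin partners and plexin effectors, 4 rose and 13 fell, 2 did not pass, and the median log2 change was -0.48. MICAL2, an actin-oxidising enzyme of the family that acts downstream of plexins, rose from 6264 ± 99.1 to 18794 ± 1193, and the small GTPase gene MRAS rose by 1.44 ± 0.08. L1CAM, an adhesion molecule that associates with NRP1, fell from 28579 ± 404 to 11913 ± 694. Of 13 tested Slit-Robo effectors and co-factors, 5 rose and 6 fell (2 did not pass), around a median of -0.10. Scaled to the library total, the rises numbered 3. SDC1, a heparan sulfate proteoglycan, rose from 8504 ± 39.6 to 17609 ± 397 and GPC1, a glypican that binds Slits, fell from 18604 ± 220 to 8879 ± 509. The actin regulator EVL rose by 0.51 ± 0.07 and the kinase gene ABL2 fell by 0.73 ± 0.06.

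Of 18 tested Eph-ephrin effectors and sheddases, 8 rose and 6 fell (4 did not pass), around a median of 0.21. ADAM12, a metalloprotease of the family that sheds ephrins, rose from 170 ± 26.2 to 709 ± 73.0, and the ephexin gene NGEF by 0.67 ± 0.18. SDCBP, which encodes syntenin and binds the tail of B-class ephrins, fell by 0.66 ± 0.05 and the receptor phosphatase gene PTPRO by 1.65 ± 0.48. Of 10 tested netrin and neogenin partners, 3 rose and 5 fell (2 did not pass), around a median of -0.10. MYO10, a filopodial myosin that carries DCC and neogenin, rose from 10545 ± 407 to 27167 ± 1215, and TRIM9, a ubiquitin ligase that binds DCC, by 1.88 ± 0.18. DAPK1, a death-associated kinase that binds UNC5 receptors, fell by 1.32 ± 0.08.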

How the data were processed

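The table holds 1 value per gene and library, which the authors deposited as normalized counts, a signal obtained from read counts and not log-transformed, per the file headers. The submitters' processing notes list DESeq2, featureCounts, Subread and STAR and no versions. Build, annotation release and strandedness were not stated in any source used. Every value was a whole multiple of its library's step (100% within 0.01 of a step), and 2 steps were taken as 1 counting unit. The number of steps was even in 99.6% of nonzero values in each library. For members under the filter, the units were themselves mostly even in number. Whether a unit is a sequenced fragment or a single read was therefore not settled. Floors cover counting error only, because PCR copies cannot be told from separate molecules here. Replicate libraries differed by more than the sampling noise of these units (chi-square per degree of freedom 5.10 to 6.93), so all 6 were counted. Per-sample columns left unused numbered 0.

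Groups follow the treatment labels. As the values are normalized, limma-trend (limma 3.58.1, R 4.3.3) was run on log2(normalized count + 1) for all 6 libraries without covariates, two-sided, with Benjamini-Hochberg adjustment over the 11872 genes averaging 10 or more. The script was tested on simulated counts. Members and lists were chosen with earlier results of these data known. Library values are given for members with an adjusted p under 0.05, no overlap between groups and an absolute log2 change of at least 1, or for the member with the smallest p in a family without one, and up to 4 genes are named per other list. Some genes of those lists are not reported here. Library values of SEMA3C, PLXND1, ROBO3 and EFNA2, and KDR, were added after their values were seen. Alternatives were other pseudocounts, filters, scalings, a replicate block and each library left out. Counting units were also fitted with edgeR 4.0.16 and DESeq2 1.42.0. Exon lengths came from GENCODE release 29, matched by identifier for all 64 members.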

Additional observations from a re-analysis of the deposited data

How the results depend on the processing

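The numbers of members higher (19) and lower (24) stayed within 1.5 times of these values under each alternative, at 16 to 20 higher and 21 to 25 lower. Scaling to the library total shifted the median over the tested genes by -0.14 (log2) and gave 2435 genes higher in place of 3721, or 36.8% of the called genes in place of 51.7%. It also gave 3 Slit-Robo effectors and co-factors higher in place of 5. Members that did not pass changed sign in 8 cases. Scaled to the library total, NTN1 was at -0.044, and with each library left out it was between -0.14 (without PBS replicate 2) and 0.33, including -0.041 without IGFBP-7 replicate 1. SEMA4G was at -0.047 with scaling to the library total and between -0.11 (without IGFBP-7 replicate 1) and 0.24 with each library left out. SEMA6A was at -0.065 with scaling to the library total and between -0.14 (without PBS replicate 3) and 0.20 with each library left out, including -0.063 without IGFBP-7 replicate 2. The causes were not tested. No member that passed changed sign, and of 798 values of single members 777 kept direction and call. Replicate numbers are shared between groups in the labels, but same-numbered libraries did not deviate together (correlations -0.049 to 0.012 over genes). These correlations cannot tell whether same-numbered libraries shared a culture, a day or a batch. With the replicate block, 19 members were higher and 24 lower, and 3715 and 3462 genes in all. With edgeR and with DESeq2 on counting units the members' counts were also 19 and 24. Few counting units were found for the members under the filter, with a mean of 3.68 normalized counts or less. SE was widest for NTN3 (0.56), SLIT1 (0.54), SLIT3 (0.47) and UNC5C (0.40).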
